A study of Etheostoma caeruleum with 18 samples.

Results

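The livers of rainbow darter, Etheostoma caeruleum, held for 14 days in water with R-venlafaxine were compared with those of control fish. The 12 libraries described were all those that the labels give to these groups, 6 exposed fish and 6 controls, out of 18 in the series, with 1 library per fish. All fish were wild, were caught in the Grand River in Canada and, per the labels' protocols, passed a further 14 days of acclimation before exposure, which controls and exposed fish had in common. Exposed fish were kept at 1 µg/L of the R form, kept up by partial water changes each day, and controls received no drug. The remaining 6 livers came from fish given the S form at the same dose. Strain, age and sex are not given in the labels, nor is the tank of each fish. The p-values therefore rest on the spread between fish, and a tank effect cannot be told apart from an effect of exposure.

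Venlafaxine is an antidepressant that blocks the transporters which take serotonin and noradrenaline back into nerve cells. It is sold as a mixture of an R and an S form, which are mirror images, and it reaches rivers through treated sewage. The liver is the main organ of drug metabolism in vertebrates, and in humans a liver cytochrome P450 enzyme turns venlafaxine into its main active product.

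Each "gene" here is a unit of a Trinity assembly, built from reads without a genome. No name comes with the identifiers in the deposited tables, so no function is attached to any gene and the liver label was not checked against marker genes. Of 302933 assembled genes, 59733 passed a filter on low counts and were tested. Abundance is given in TPM, a share of a library's transcripts that is scaled for gene length and can be compared between genes. In whole tissue, fewer cells of a type and less RNA per cell cannot be told apart. The genes were put into 6 classes by their mean TPM over all 18 livers.

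The libraries of both groups had the same make-up within the spread between fish. Library totals ran from 43.8 to 65.6 M estimated counts in controls and from 51.7 to 62.4 M in exposed fish. The 187 genes with a mean of 1000 TPM and over held 55.8 ± 1.79% of a control liver's transcripts and 55.5 ± 2.30% of an exposed one's (SD, n = 6 each). Genes under 0.5 TPM, most of which were too rare to be tested, held 1.91 ± 0.246% and 2.22 ± 0.636% (SD, n = 6 each). None of 11 such measures of depth, number of genes and share per class differed between the groups (exact permutation test, two-sided, lowest p = 0.320, adjusted p = 0.818 for each). The fish farthest on average from the other 11 were control 3 and R-venlafaxine 1, with a median gene 0.614 and 0.626 apart on the log2 scale, beside 0.566 to 0.596 for the rest.

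No assembled gene passed the test of R-venlafaxine against control. In edgeR's quasi-likelihood test 0 of 59733 genes were called, 0% of those tested, and the lowest Benjamini-Hochberg adjusted p was 1. Without adjustment, 1933 genes, 3.24% of those tested, had a p under 0.05, 882 of them higher (1.48%) and 1051 lower (1.76%) in exposed fish. In fits without 1 fish, over all genes tested, the direction of that excess followed the group that lost the fish. These fits tested 63959 to 64904 genes, because the filter asked for fewer libraries. Their groups were of unequal size, so they cannot tell whether the excess rests on single fish. On leaving out any 1 of the 6 controls the higher genes were more numerous, up to 1685 higher and 1337 lower without control 5. On leaving out any 1 of the 6 exposed fish the lower ones were, up to 1024 higher and 1765 lower without R-venlafaxine 3. Among the genes of the full fit alone, lower genes stayed more numerous without control 2 (1060 higher, 1129 lower) and without control 4 (921 and 1013). Over all genes tested in each fit, the higher genes moved by over 1.5 times without control 2, 3, 5 or 6. The lower ones did so without R-venlafaxine 2, 3, 4 or 6. Limma called 0 genes too, both with voom and on log2 TPM. DESeq2 called 70 genes, 0.117% of those tested, as described further on.

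Among genes above 0 in both groups, low p-values were not spread evenly over abundance. Of the genes listed above 0 in both groups, 2.66% had an unadjusted p under 0.05, 1.24% as higher and 1.42% as lower genes. The share was 1.58% under 0.5 TPM, 2.60% from 0.5 to 1 TPM, 3.55% from 1 to 10 TPM, 3.83% from 10 to 100 TPM, 3.02% from 100 to 1000 TPM and 1.07% at 1000 TPM and over. Every class thus lay below the 5% that evenly spread p-values give (2987 of 59733 genes). These shares leave out 351 genes at 0 throughout a group, all at an unadjusted p under 0.05 in edgeR. Of those, 296 were under 0.5 TPM and 51 from 0.5 to 1 TPM. With them the shares of the rare classes would be larger, and the counts that follow leave them out too. Under 0.5 TPM there were 178 higher and 176 lower genes in edgeR, 273 and 382 in limma voom and 360 and 436 on log2(TPM + 0.1). The direction there followed the group that lost a fish, at 330 higher and 133 lower without control 3 and 137 and 375 without R-venlafaxine 3. From 10 to 100 TPM there were 73 higher and 130 lower genes, and lower genes were in the majority on leaving out any 1 of 12 fish except control 5, without which there were 134 higher and 125 lower. From 100 to 1000 TPM there were 6 higher and 15 lower genes, and 13 and 15 without control 5. Genes are not independent replicates, and this imbalance was not tested.

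The fitted changes were small in well expressed genes and large, but imprecise, in rare ones. The median absolute log2 fold change was 0.50 under 0.5 TPM, 0.38 from 0.5 to 1 TPM, 0.17 from 1 to 10 TPM, 0.12 from 10 to 100 TPM, 0.11 from 100 to 1000 TPM and 0.08 at 1000 TPM and over. The median standard error fell in step and was larger than the median change in each class, at 1.08, 0.72, 0.28, 0.19, 0.18 and 0.17 in the same order. Changes lay around 0, as the median signed log2 fold change of a class was between -0.02 and 0.01. The scaling between libraries (TMM) centres typical genes near no change, so these medians are in part set by it. A typical gene of 1000 TPM and over thus differed by 1.06-fold between the group means, and a typical gene under 0.5 TPM by 1.42-fold.

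**Figure D1:**
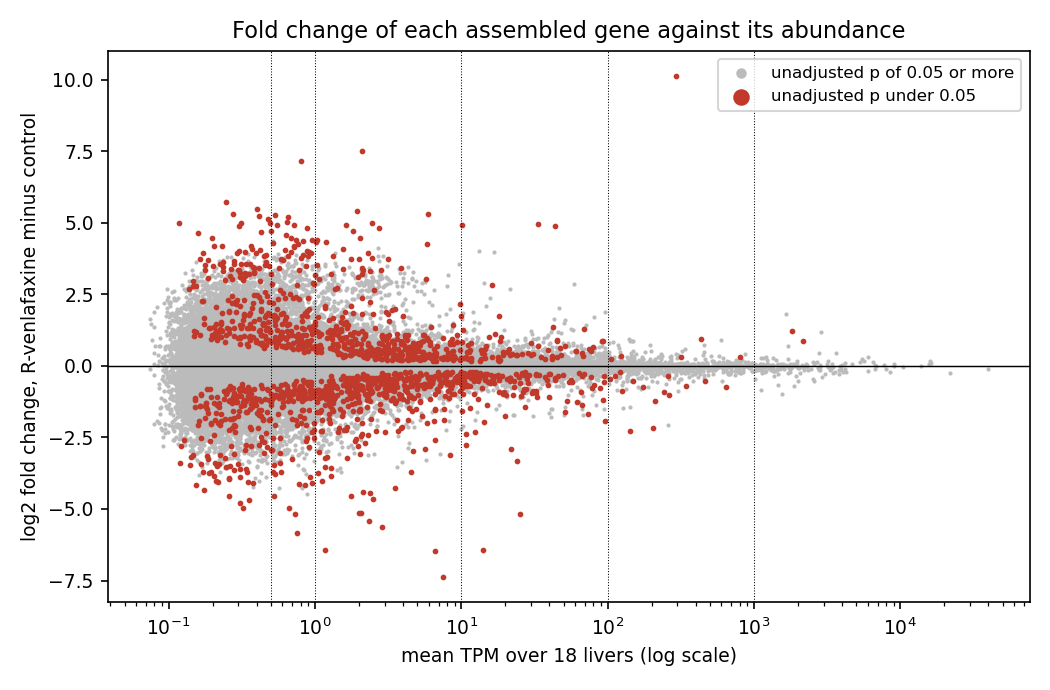
Each point is 1 of 59382 assembled genes listed above 0 in both groups, with its mean TPM over 18 livers on a log axis and its log2 fold change, R-venlafaxine minus control, on the other; red points have an unadjusted p under 0.05 and dotted lines mark the class limits. The points narrow towards 0 as abundance grows, with a single gene near 292 TPM far above the rest at a log2 fold change of 10.13.

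The size of change that 6 fish per group could bound followed from the approximate 95% interval of each gene's fold change. Both ends of it were inside a 2-fold change, up or down, for 87.2% of genes at 1000 TPM and over, for 81.9% from 100 to 1000 TPM and for 80.6% from 10 to 100 TPM. They were so for 59.6% of genes from 1 to 10 TPM, for 20.5% from 0.5 to 1 TPM and for 5.23% under 0.5 TPM. Within 4-fold lay the intervals of 95.7% of genes at 1000 TPM and over and of 32.7% under 0.5 TPM. For most genes above 10 TPM a doubling or halving was therefore outside the interval, while for most genes under 1 TPM it was inside. A lone changed gene with its class's median standard error would need to change 2.46-fold at 1000 TPM and over, 4.34-fold from 1 to 10 TPM, 43.7-fold from 0.5 to 1 TPM and 302-fold under 0.5 TPM to pass the adjusted threshold among 59733 genes.

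**Figure D2:**
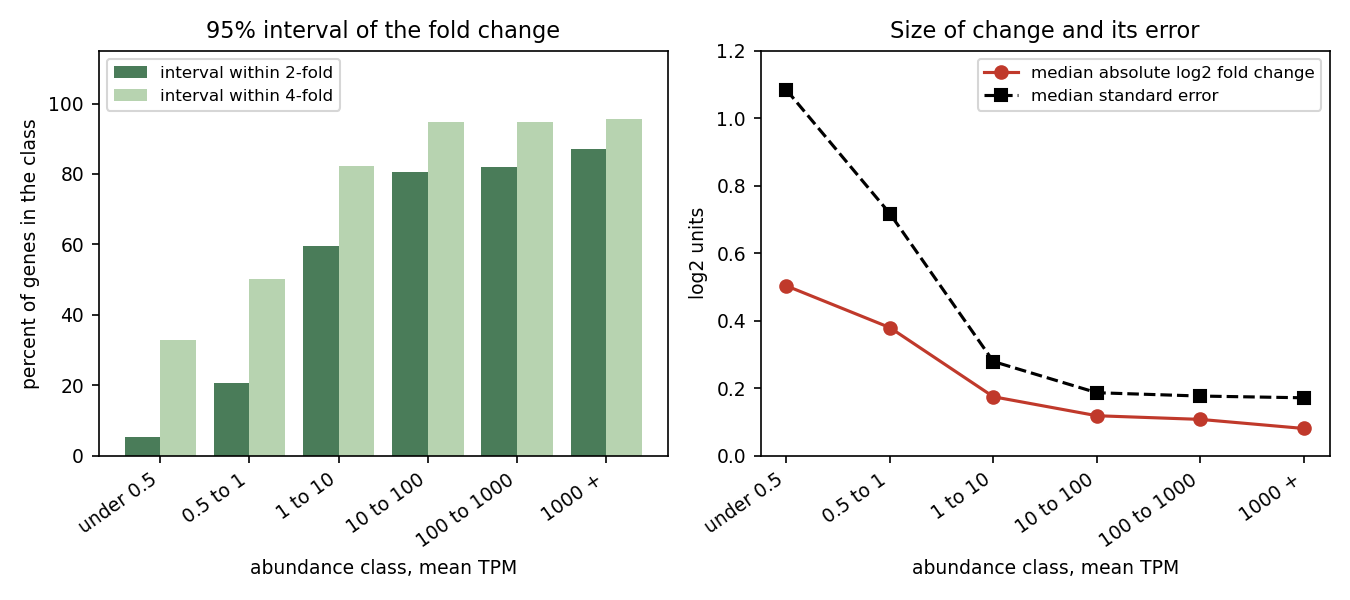
The left panel gives, for each abundance class, the percentage of genes whose 95% interval of the fold change, R-venlafaxine against control, lay within 2-fold or within 4-fold; the right panel gives the median absolute log2 fold change and the median standard error. The share within 2-fold grows from 5.23% to 87.2% with abundance, and the standard error is above the change in every class.

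Large fitted changes were common only among rare genes, and most of those below 100 TPM did not stay past 2-fold when single fish were left out. A fitted change over 2-fold was seen in 24.2% of genes under 0.5 TPM, 17.4% from 0.5 to 1 TPM, 6.20% from 1 to 10 TPM, 1.87% from 10 to 100 TPM, 1.15% from 100 to 1000 TPM and 1.60% at 1000 TPM and over. Of the 8520 genes over 2-fold in all classes, 4180 were higher and 4340 lower, and 747 had an unadjusted p under 0.05. When each of the 12 fish was left out in turn, 44.0% of the 8520 stayed over 2-fold in the same direction every time. From 100 to 1000 TPM 7 of 8 did, 87.5%, and at 1000 TPM and over none of 3, beside 41.4% to 45.5% in the classes below 100 TPM. Of the 1582 genes at an unadjusted p under 0.05 and above 0 in both groups, 465 kept that p on leaving out any 1 of the 12 fish.

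In the median gene of a class, an exposed and a control fish differed no more than fish of the same group. A change in a small part of a class's genes would hardly move this measure. From 1 to 10 TPM, the median gene differed by 1.34-fold between a pair of control fish, by 1.34-fold between a pair of exposed fish and by 1.34-fold between a control and an exposed fish, as means over 15, 15 and 36 pairs. At 1000 TPM and over these values were 1.22-fold, 1.23-fold and 1.21-fold, and under 0.5 TPM they were 1.96-fold, 1.94-fold and 1.95-fold. In each of the 6 classes the mean over mixed pairs was slightly below that over all same-group pairs, by between 0.0027 and 0.0207 on the log2 scale. No class passed a one-sided exact permutation test for larger differences between groups (lowest p = 0.621, adjusted p = 0.963 for each, over 12 tests). The spread among exposed fish did not differ from that among controls either (two-sided exact permutation test, lowest p = 0.643, adjusted p = 0.963 for each of the 6 classes).

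**Figure D3:**
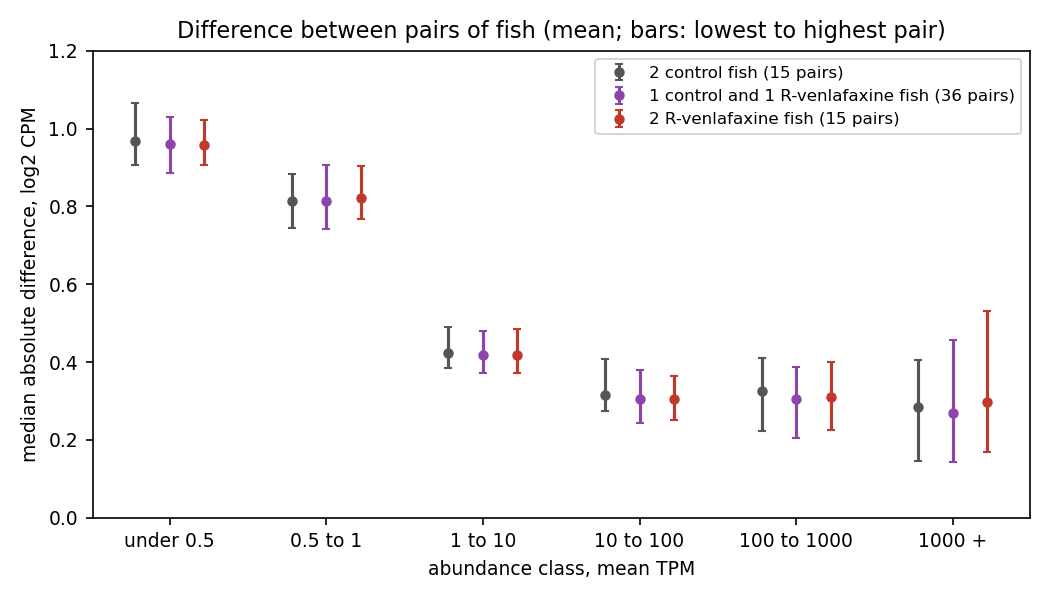
For each abundance class, points give the mean over pairs of fish of the median absolute difference in log2 CPM (counts scaled to library size), and bars run from the lowest to the highest pair. Mixed pairs of a control and an R-venlafaxine fish overlap with both kinds of same-group pair in every class, for example with means of 0.419 against 0.424 and 0.419 from 1 to 10 TPM.

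The genes with the lowest p-values show what these comparisons consist of. They were picked for their p, so their values describe the comparison and are no test of it, and all had an edgeR adjusted p of 1. Because the files hold no names, identifiers are printed for only 2 genes in each direction.

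TRINITY_DN3882_c3_g1 had the lowest p of all genes, 2.53e-05, and was lower after exposure. It stood at 1.23, 0.49, 0.68, 0.57, 0 and 0.93 TPM in controls 1 to 6 and was listed at 0 in all 6 exposed fish. Control 5 was thus like the exposed fish, and the other 5 controls were above all of them. With only these 5 fish above 0, the gene passed the low-count filter, which asked for 6 libraries, only through S-venlafaxine fish. The 6 S-venlafaxine fish, which share the controls of this comparison, ranged from 0.4 to 1.34 TPM with a median of 0.855 TPM, and none of them was at 0. Without control 5 the gene was called (edgeR adjusted p = 0.00545).

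TRINITY_DN3611_c6_g1 had the lowest p among genes that were higher, 0.000238. It was listed at 0 in all 6 controls and at 4.82, 2.3, 1.12, 3.36, 0 and 2.64 TPM in exposed fish 1 to 6, so that only R-venlafaxine 5 overlapped with the controls. S-venlafaxine fish ran from 0 to 5.58 TPM with a median of 2.11 TPM. This gene too passed the low-count filter only through S-venlafaxine fish. The 1 other gene of its assembly component, the cluster of assembled genes that share sequence, averaged 1.87 ± 0.770 TPM in controls and 2.61 ± 1.26 TPM in exposed fish (SD, n = 6 each). With both summed, the log2 difference between groups was 1.41 (SE 0.42, edgeR adjusted p = 1).

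Among genes with a mean of at least 10 TPM, TRINITY_DN3512_c0_g1 had the lowest p in the higher direction, 0.00101, and the widest contrast of any gene above 0 in both groups. Controls 1 to 6 stood at 0.64, 0.21, 0.53, 0.79, 1.39 and 0.17 TPM. Exposed fish 1 to 6 stood at 1024.96, 1418.99, 1711.36, 12.91, 4.73 and 2.99 TPM. All 6 exposed fish lay above all 6 controls, but they formed 2 sets, 3 fish above 1000 TPM and 3 below 13 TPM. On the log2 scale the groups differed by 10.13 (SE 2.55, 95% interval 4.75 to 15.51, edgeR adjusted p = 1). The library names carry a letter A, B or C, 2 fish of each group per letter, whose meaning the labels do not state. Exposed fish averaged 1222 TPM under A, 862 TPM under B and 3.86 TPM under C, against 0.425, 0.66 and 0.78 TPM in controls. The B mean joins R-venlafaxine 3 at 1711.36 TPM and R-venlafaxine 4 at 12.91 TPM. In S-venlafaxine fish the gene ran from 0 to 1008.95 TPM with a median of 3.25 TPM, so 1 of those 6 was near the 3 high fish of the R group. The 3 other genes of its component summed to 202 ± 40.4 TPM in controls and 222 ± 33.8 TPM after R-venlafaxine (SD, n = 6 each). Summed over the component, the log2 fold change came to 2.22 (SE 0.69, edgeR adjusted p = 1).

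TRINITY_DN11553_c0_g1 had the lowest p in the lower direction among genes with a mean of at least 10 TPM, 0.000294. Controls 1 to 6 stood at 112.19, 65.1, 75.42, 105.39, 124.07 and 108.74 TPM, and exposed fish 1 to 6 at 68.63, 51.41, 43.93, 65.26, 67.47 and 56.46 TPM. Of the exposed fish, 3 lay below all controls, and the overlap came from control 2 alone. The log2 difference was -0.78 (SE 0.17, 95% interval -1.14 to -0.42, edgeR adjusted p = 1), and it stayed between -0.88 and -0.69 on leaving out any 1 of the 12 fish. Under letters A, B and C the means were 88.6, 90.4 and 116 TPM in controls and 60.0, 54.6 and 62.0 TPM in exposed fish. The median of S-venlafaxine fish, 75.5 TPM, lay between these, with a range of 51.6 to 104 TPM.

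**Figure D4:**
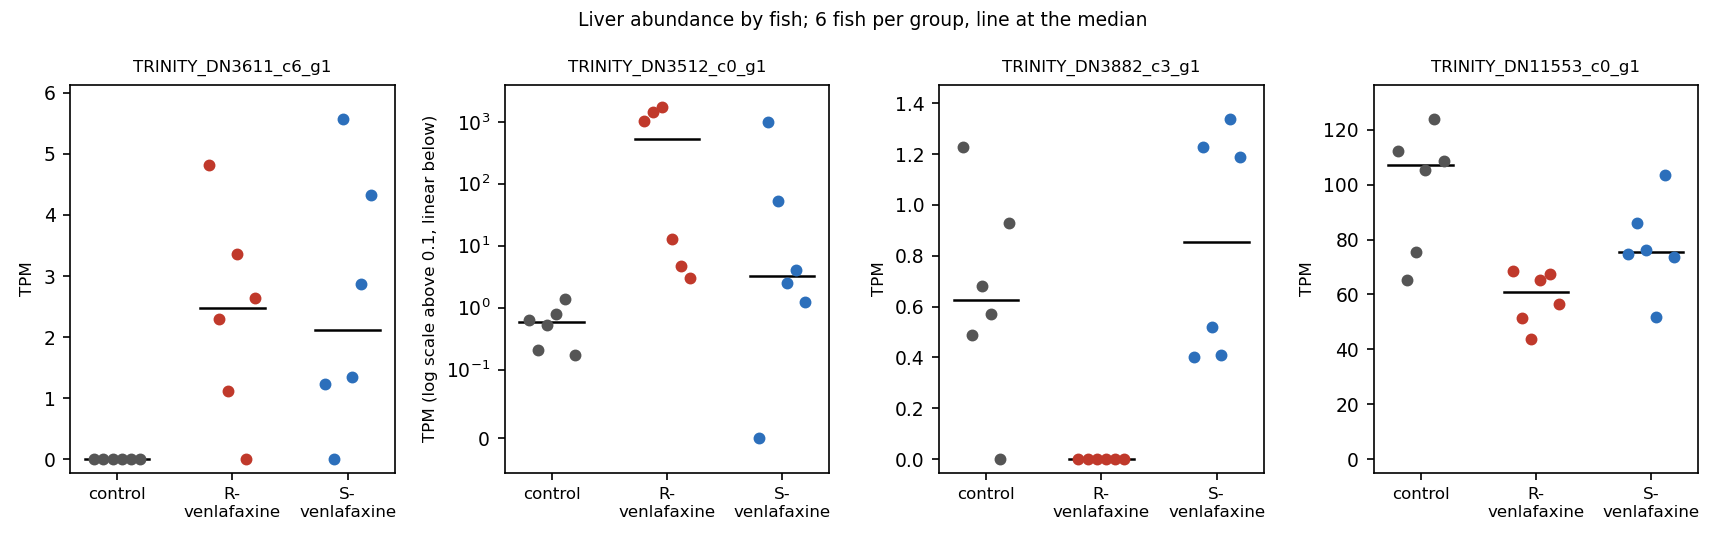
TPM of the 4 genes named in the text in each of 6 control, 6 R-venlafaxine and 6 S-venlafaxine livers, with a line at each group's median; the axis of TRINITY_DN3512_c0_g1 is logarithmic above 0.1 TPM and linear below. In that gene 3 R-venlafaxine fish and 1 S-venlafaxine fish exceed 1000 TPM, while TRINITY_DN3882_c3_g1 is at 0 in every R-venlafaxine fish and in control 5.

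Some of the other genes that lead a class are described without identifiers. From 1 to 10 TPM the lower gene of lowest p had 3.12 to 6.9 TPM in controls (median 4.74) and 1.1 to 2.13 TPM after R-venlafaxine (median 1.69), with no overlap. S-venlafaxine fish spanned 1.09 to 3.44 TPM in that gene. From 100 to 1000 TPM the lower gene of lowest p ranged from 123 to 458 TPM in controls, median 228 TPM, and from 11.2 to 172 TPM in exposed fish, median 33.4 TPM. Only R-venlafaxine 6 overlapped with the controls, and the log2 difference was -2.28 (SE 0.53, edgeR adjusted p = 1). The median of S-venlafaxine fish, 134 TPM, lay between the medians of these groups, with a range of 84.0 to 158 TPM.

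At 1000 TPM and over no gene came near the threshold. The lowest p among these 187 genes, 0.0388, belonged to a gene with a median of 1687 TPM in controls and 2481 TPM in exposed fish, whose ranges of 326 to 2811 TPM and 1862 to 5840 TPM overlapped. The most abundant assembled gene stood at 41715 ± 6107 TPM in controls and 38802 ± 4013 TPM after R-venlafaxine (SD, n = 6 each). The log2 difference was -0.11, with a 95% interval of -0.51 to 0.29. In the next 4 genes by abundance the log2 fold change was -0.24, 0.08, 0.15 and 0.05, and no interval passed 0.64 in either direction.

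Above 100 TPM, 11 genes had a fitted change over 2-fold, 7 lower and 4 higher, TRINITY_DN3512_c0_g1 among them, and in the other 10 the groups overlapped. A pair of lower genes of 1 assembly component, which may share reads, had means of 143 and 204 TPM and the same order of the 6 exposed fish, from R-venlafaxine 3 as the lowest to R-venlafaxine 6 as the highest. In each of the pair 5 of 6 exposed fish lay below all controls. Another pair of lower genes, of different assembly components, was put together for its similar values. It was steady in controls, at 134 to 273 TPM and 163 to 328 TPM. In exposed fish it was spread out, at 0.63 to 263 TPM and 3.75 to 286 TPM. In both genes, R-venlafaxine 4 lay within the controls' range and the other 5 exposed fish lay below all controls. S-venlafaxine fish were spread out in this pair too, at 2.02 to 155 TPM and 2.46 to 138 TPM. The pair's unadjusted p, R-venlafaxine against control, was 0.197 and 0.200 in edgeR. A gene at a mean of 1657 TPM owed its change to a single fish, since R-venlafaxine 3 stood at 10094 TPM and the other 5 exposed fish at 549 to 754 TPM, beside 540 to 752 TPM in controls. Without that fish its log2 fold change was -0.01. S-venlafaxine 2 was likewise high in this gene, at 8771 TPM.

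**Figure D5:**
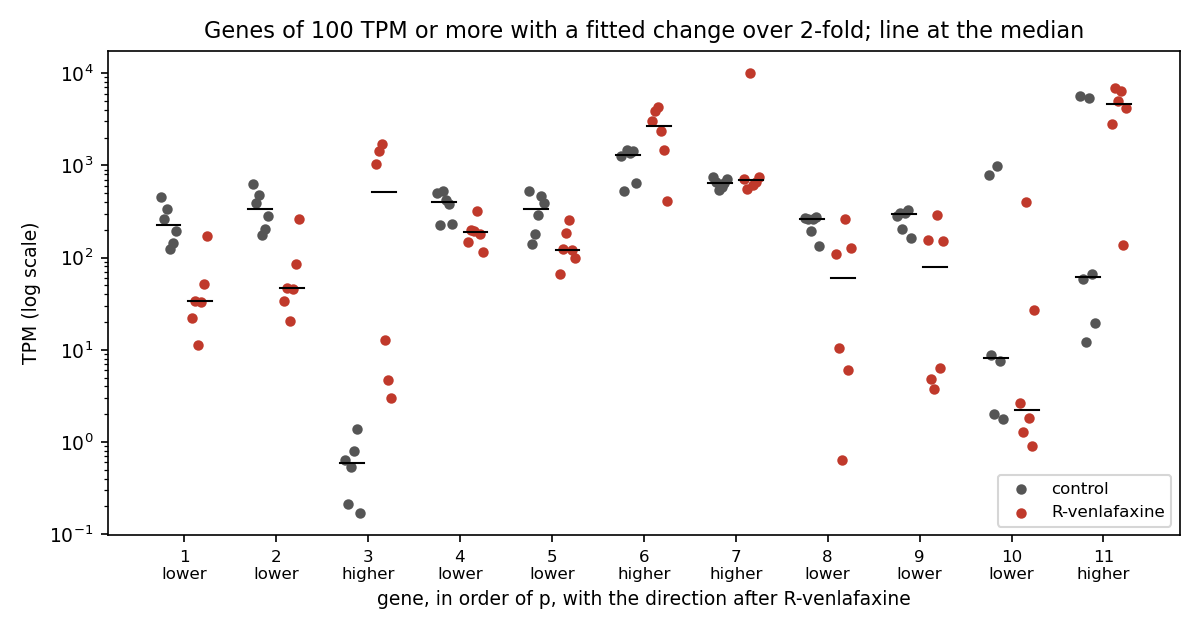
TPM on a log axis for the 11 genes with a mean of 100 TPM or more and a fitted change over 2-fold, in order of p, in 6 control and 6 R-venlafaxine livers with a line at each group's median. Only in the third gene, TRINITY_DN3512_c0_g1, do the groups not overlap, and the seventh gene has a single exposed fish at 10094 TPM.

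Complete separation of the groups was rare. It was counted on the deposited TPM, which carry no scaling between libraries, unlike the edgeR fit. In 26 genes all 6 exposed fish were above all 6 controls, 0.0435% of those tested, and in 57 all were below, 0.0954%. That makes 83 in all, 0.139%. Random labels would separate 6 untied values from 6 others with a probability of 0.00216, and the share seen was no higher. Most of the margins were narrow: the gap between the nearest exposed and control fish reached 1.5-fold in 2 of the higher and 4 of the lower genes that were above 0 in both groups. Whether genes with narrow margins stay separated after scaling between libraries was not tested. Of these 83 genes, 3 of the higher and 3 of the lower had a mean of at least 10 TPM. One of them, at a mean of 61.1 TPM, had 35.3 to 64.8 TPM in controls and 69.0 to 94.3 TPM in exposed fish, a log2 difference of 0.52 (SE 0.15, edgeR adjusted p = 1). S-venlafaxine fish had 41.0 to 73.2 TPM there.

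Genes listed at 0 throughout 1 of the groups made up part of the low p-values. There were 351 such genes, 143 at 0 in controls and 208 at 0 in exposed fish, and all 351 had an unadjusted p under 0.05 in edgeR. They were 18.2% of the 1933 genes at that p, and 210 of them were present in 3 or fewer fish of the other group. The low-count filter looked at all 18 livers and asked for 6 libraries. Those of the 351 present in fewer than 6 fish of the other group thus passed it only through S-venlafaxine fish. With only the 2 groups fitted, 48670 genes were tested, 0 were called and 1480 had an unadjusted p under 0.05 in edgeR. A gene present in 1 fish and in no other of the 12 still had a p of at most 0.0323, in 11 genes. In 7 genes 1 group was at 0 throughout and all 6 fish of the other were above it, 6 of these at 0 after exposure and 1 at 0 in controls. Of the 351, 4 had a mean of 1 TPM or more.

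DESeq2's 70 calls were of both kinds, with and without a group at 0. They were 51 lower genes, 0.0854% of those tested, and 19 higher, 0.0318%. In 36 of them 1 group was at 0 throughout, and 34 were above 0 in both groups, 20 of these with a mean of 1 TPM or more. Of the 70, 47 had a mean under 1 TPM and 7 a mean of at least 10 TPM. In 15 a single fish held over 50% of the summed TPM of the higher group. All 70 were at an unadjusted p under 0.05 in edgeR, 68 of them also on leaving out any 1 of the 12 fish. That p comes from the same fish and counts as the DESeq2 calls, so it adds no separate support for any of the 70. As for the 36 with a group at 0, all 351 tested genes of that kind had it. In 22 of the 70 the groups did not overlap. All 4 genes named above were among the 70. Their DESeq2 adjusted p-values were 7.06e-08 for TRINITY_DN3882_c3_g1, 7.48e-07 for TRINITY_DN3611_c6_g1, 6.24e-07 for TRINITY_DN3512_c0_g1 and 0.0123 for TRINITY_DN11553_c0_g1. An unnamed gene at 0 in 4 of 6 controls and in all 6 exposed fish had a lower DESeq2 adjusted p, 6.44e-18. Its unadjusted p in edgeR was 0.0089. With a group at 0, a very low DESeq2 adjusted p can thus rest on few fish.

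Leaving out 1 fish brought edgeR calls in 3 of 12 cases, 4 calls in all, and each was a gene for which that fish was the exception to an all-or-none pattern. Without control 1 there were 2 calls, without R-venlafaxine 2 and without control 5 there was 1 each (edgeR adjusted p = 0.00545 to 0.0239). In the gene called without R-venlafaxine 2, that fish had 0.32 TPM and the other 5 exposed fish were at 0, while controls had 0.24 to 1.26 TPM. These fits tested more genes, 63959 to 64904, since the filter then asked for fewer libraries.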

How the data were processed

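PolyA RNA of rainbow darter liver was sequenced from strand-preserving libraries, per the labels' protocols. Trimmomatic 0.36, Bowtie2 2.2.7 and RSEM 1.3.1 are named in the submitters' processing notes, without settings. The authors deposited estimated counts and TPM per assembled gene. The deposited estimated counts equalled TPM rescaled to the library's total, within 0.0055 TPM, for 99.977% of values, so they are not numbers of reads, and the error that a count test gives to rare genes is approximate.

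Estimated counts were rounded and filtered by filterByExpr (minimum count 10, minimum total 15). All 18 libraries entered 1 edgeR 4.0.16 quasi-likelihood fit (R 4.3.3, TMM, robust, group means only), and R-venlafaxine was contrasted with control, two-sided, with Benjamini-Hochberg adjustment over all genes. Standard errors were computed as the absolute log2 fold change divided by the square root of the test's F statistic. The 95% intervals of the log2 fold change were built from them and are approximate. Genes at 0 throughout a group have no fold change and were left out of effect sizes. Alternatives used DESeq2 1.42.0, limma 3.58.1 (log2 TPM with a pseudocount of 0.1 or 1), other scalings and filters, blocks and left-out fish. Differences between pairs of fish used log2 CPM with a prior count of 2, a measure added after the data were seen, as were the counts per direction and class without single fish. The fit was also run on simulated counts with known changes. These changes were placed only in better expressed genes, so changes in rare genes were not checked.

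Identifiers were printed for the gene of lowest p in each direction among all genes and among those with a mean of at least 10 TPM. Genes leading each class and the 5 most abundant were chosen by rule, but only some of the class leaders are described. Other genes were chosen after their values were seen. Members, classes and rules were chosen with earlier results of these data known.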

Additional observations from a re-analysis of the deposited data

How the results depend on the processing

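The count of 0 edgeR calls became 70 in DESeq2 and 0 to 2 on leaving out 1 fish, and stayed 0 in each of the other 14 alternatives, among them leaving out control 3 and R-venlafaxine 1 together, chosen after the data were seen. The 1933 genes at an unadjusted p under 0.05 were 3.24% of those tested. They became 1021 of 29593 (3.45%) with a filter at 1 CPM in 6 libraries. With a filter at a mean of 1 TPM they became 1021 of 27405 (3.73%). Genes at that p numbered 95248 of 288593 with no filter and 2399 to 3022 (3.71% to 4.68%) without 1 fish. The first pair of filters tested fewer genes, so the number fell while the share did not. For the other settings the cause was not tested. Under 0.5 TPM, 1169 of 22352 genes had an interval within 2-fold as reported. Of the same genes, 1832 had one in DESeq2, and 4290 and 21936 on log2(TPM + 0.1) and log2(TPM + 1). Other settings changed the class itself, to 696 of 17839 per component, 0 of 18 with the CPM filter and 18 of 125563 with no filter. The number was 588 of 24100 without control 3 and R-venlafaxine 1, and 712 to 831 of 25971 to 26861 without 1 fish. With only the 2 groups fitted it was 1277 of 12793, 9.98% against 5.23% as reported. From 0.5 to 1 TPM it was 2002 of 9744 as reported, 370 of 2500 with the CPM filter, 990 of 10026 with no filter and 7921 of 9744 on log2(TPM + 1). A pseudocount draws low values together, which widens the share within 2-fold by construction. Above 1 TPM these counts stayed within 1.5 times of the reported ones. The fold changes of TRINITY_DN3512_c0_g1 and TRINITY_DN11553_c0_g1 kept their direction, at 5.93, on log2(TPM + 1), to 10.54, and at -0.88 to -0.69.

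With the labels' replicate number as a replicate block there were 0 calls and 1901 genes at an unadjusted p under 0.05, and 749 genes under 0.5 TPM had an interval within 2-fold. Same-numbered fish of both groups correlated at -0.019 to 0.098 in their deviations from the group means, so same-numbered fish were not treated as pairs, although 6 of 12 libraries correlated best with their own number.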

Other observations

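The most abundant gene that was at 0 throughout 1 of the groups had a mean of 22.1 TPM over 18 livers, which came almost wholly from 2 fish. Control 4 stood at 195 TPM and S-venlafaxine 2 at 187 TPM, control 5 at 1.18 TPM, the other 4 controls and all 6 R-venlafaxine fish at 0, and the other S-venlafaxine fish at 0 to 9.31 TPM. It counted among the 208 genes at 0 after R-venlafaxine, with an unadjusted p of 0.0126 in edgeR, and was chosen after its values were seen.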
